A study of Homo sapiens with 4 samples.

Results

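The region around FOXA1 on chromosome 14 and the ETV1 gene on chromosome 7 were examined for binding of HOXB13, a homeobox transcription factor of the prostate, in LNCaP, an established prostate cancer cell line. A peak belonged to the set when its summit, the position of highest signal, lay between 37600000 and 38200000 on chromosome 14 or within 100 kb of ETV1 on chromosome 7 in the hg19 build. This gave 51 of the 68049 peaks on placed chromosomes of the list labelled GSK2879552 and 3 of the 3507 of the list labelled vehicle. Of these, 39 and 2 lay in the window of chromosome 14 and 12 and 1 in the window of ETV1. Membership was set by position alone, not by any measured value, but the gene intervals were chosen with earlier results of these data known.

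HOXB13 was immunoprecipitated with its bound DNA and the DNA was sequenced. The cells were labelled as treated with 50 µM GSK2879552 for 4 hours, in RPMI1640 medium with CSS, or with vehicle. GSK2879552 inhibits LSD1 (KDM1A), an enzyme that removes methyl groups from histone H3. The treatment text is the same for all 4 samples, so the vehicle group rests on titles and descriptions. Each treatment had 1 library run on 2 lanes, labelled technical replicates, and 1 peak list, so the values below carry no error between cultures and treatments could not be tested. A position of the genome had a background of 2.79 tags with GSK2879552 and 0.443 with vehicle. The background tags per 10 kb differed by a factor of 4.54, so the list with more peaks appeared to come from the deeper library. Reads were not counted, and this takes the background to be that of the immunoprecipitated library. It also takes the smallest peak widths as tag lengths. Depth and treatment cannot be told apart.

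FOXA1 encodes a pioneer factor, a forkhead protein that binds closed chromatin and makes sites accessible to the androgen receptor in prostate cells. Its neighbour MIPOL1 encodes a coiled-coil protein, and the sequence within and beside MIPOL1 is known for regulatory elements that act on FOXA1. ETV1 is a transcription factor of the ETS family that is switched on by rearrangement in some prostate cancers. In LNCaP a copy of ETV1 has moved into the MIPOL1 to FOXA1 region. Reads from a moved copy align to chromosome 7 all the same, so the peaks at ETV1 do not show which copy was bound.

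In hg19, MIPOL1 runs from 37667118 to 38020464 and FOXA1 from 38058757 to 38064325 on chromosome 14, and ETV1 from 13930856 to 14031050 on chromosome 7. MIPOL1 is read towards higher coordinates, and FOXA1 and ETV1 towards lower ones, so the start of either is its highest coordinate. Exons, introns and untranslated regions of hg19 were not used here, and a peak within a gene is placed only in its span.

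The promoters of FOXA1 and ETV1 are shown because a GSK2879552 peak lay at or near the start of each. Both come from RefSeq (build GRCh38.p14, minus strand) and run from 250 bases before the start to 50 after it, at chr14:37595200-37595499 and chr7:13991376-13991675. These coordinates are of another build than the peaks. The capitals in FOXA1 mark 121 bases that are, as the reverse complement, also the first bases of the window of TTC6, the neighbouring gene read in the opposite direction. In ETV1, for which the table has 6 windows, the farthest upstream is shown, and the capitals mark its 137 bases under the GSK2879552 peak, placed by distance from the gene start.

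FOXA1: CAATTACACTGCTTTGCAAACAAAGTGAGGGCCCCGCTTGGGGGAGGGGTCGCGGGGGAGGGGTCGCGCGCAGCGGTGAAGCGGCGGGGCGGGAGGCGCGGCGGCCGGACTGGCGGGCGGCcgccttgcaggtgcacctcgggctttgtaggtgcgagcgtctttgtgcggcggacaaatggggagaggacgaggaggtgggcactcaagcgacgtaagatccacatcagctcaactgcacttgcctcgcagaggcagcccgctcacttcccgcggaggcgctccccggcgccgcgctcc
ETV1: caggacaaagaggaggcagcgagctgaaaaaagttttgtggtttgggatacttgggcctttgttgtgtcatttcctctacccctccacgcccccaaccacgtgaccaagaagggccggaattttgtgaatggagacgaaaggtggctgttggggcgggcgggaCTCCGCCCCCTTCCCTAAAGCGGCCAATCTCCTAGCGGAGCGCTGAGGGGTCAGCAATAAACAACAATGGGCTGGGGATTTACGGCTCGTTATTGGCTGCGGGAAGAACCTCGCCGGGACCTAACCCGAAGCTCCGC

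For ETV1 the length of the gene in RefSeq exceeds that in hg19 by 2 bases, so the capitals are placed to within 2 bases. For FOXA1 the excess is 129 bases. The FOXA1 start may thus lie up to 129 bases farther upstream in RefSeq, and no base of its window was assigned to a peak. GC content was 69.3% for FOXA1 and 57.3% for ETV1. Neither window held, on either strand, CCAATAAA or CTCGTAAA (forms of the HOXB13 site), TGTTTAC (FOXA), AGAACA (core of an androgen receptor site) or CCGGAAGT (ETS), none of which contains another. Of the 35116 promoter windows in the table, 0.934%, 0.137%, 3.42%, 14.8% and 4.14% held these letters, in the same order. Only exact matches were searched, so near matches are not covered. The capitals in ETV1, for example, hold GCAATAAA, which differs from CCAATAAA in its first base.

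HOXB13 peaks were dense in the window of MIPOL1 and FOXA1 in the GSK2879552 list. The 39 peaks came to 65.0 per Mb, against 28.7 on the rest of chromosome 14 and 23.7 over the placed chromosomes. When the genome was divided into bins of the same length, 0.443% of the 4741 bins with a peak held at least 39, and the median bin held 14. Among the peaks of at least 5-fold enrichment the window held 12, a number reached in 0.675% of bins. Of the 3507 peaks of lowest p-value it held 5, and 0.907% of bins held as many. The vehicle list had 2 peaks in the window, or 3.33 per Mb against 1.22 over the placed chromosomes, and 15.6% of bins held as many. The local background at the GSK2879552 peaks of the window had a median of 1.74 times that of the genome, against 1.22 in the whole list. At least this median was found in 2.26% of bins with 5 or more peaks. The local background was read only at peaks and may include tags of the peaks themselves. That share, DNA copy number and the part of the higher background in the peak number were not tested.

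**Figure D1:**
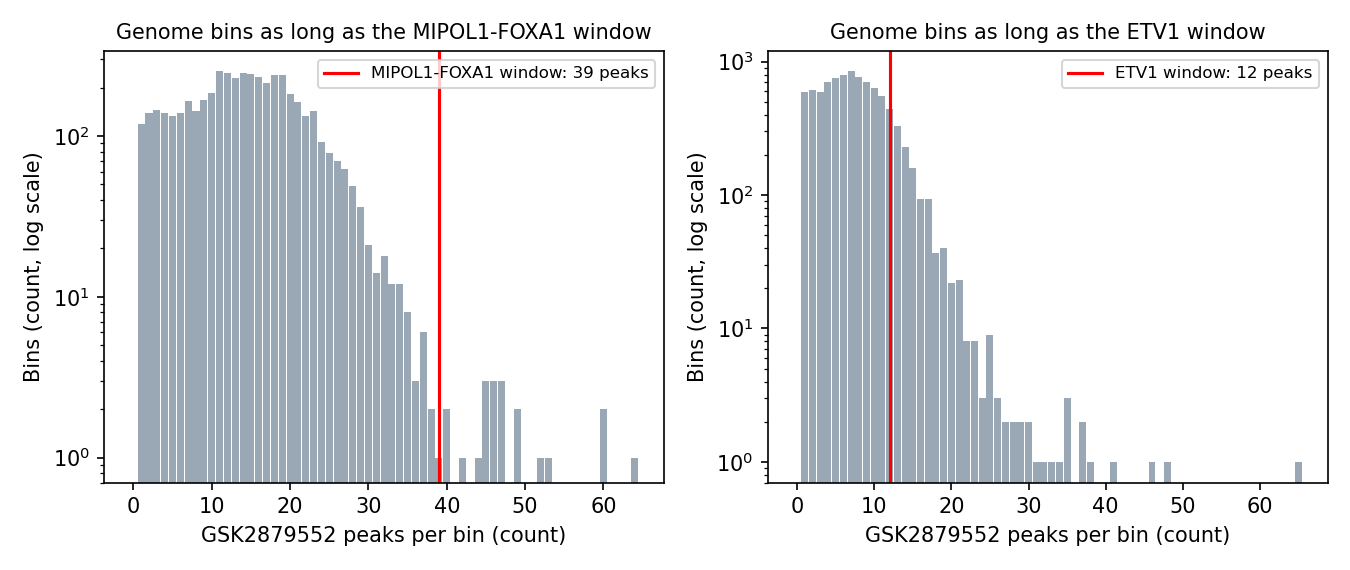
Number of genome bins (log scale) by GSK2879552 peaks per bin, for bins as long as the MIPOL1-FOXA1 window (left) and the ETV1 window (right), with the windows' own counts as red lines. The line at 39 peaks lies in the upper tail, where 0.443% of bins hold as many, and the line at 12 peaks lies nearer the centre, where 16.7% do.

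Most of the chromosome 14 peaks lay within MIPOL1. Its span held 28 of the 39 GSK2879552 peaks, or 79.2 per Mb over 353 kb, and both vehicle peaks. Another 3 lay before its start, 1 between MIPOL1 and FOXA1, 1 within FOXA1 and 6 beyond the FOXA1 start. The median spacing of summits was 9.68 kb, against 22.6 kb in the whole list, and 10 of 38 spacings were under 5 kb, against 15.4% in the whole list. Between peaks of the window, the longest stretches without one ran for 50.1 kb from 37813786 and 46.2 kb from 37945375, both within MIPOL1, and the last 72.3 kb of the window held none.

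**Figure D2:**
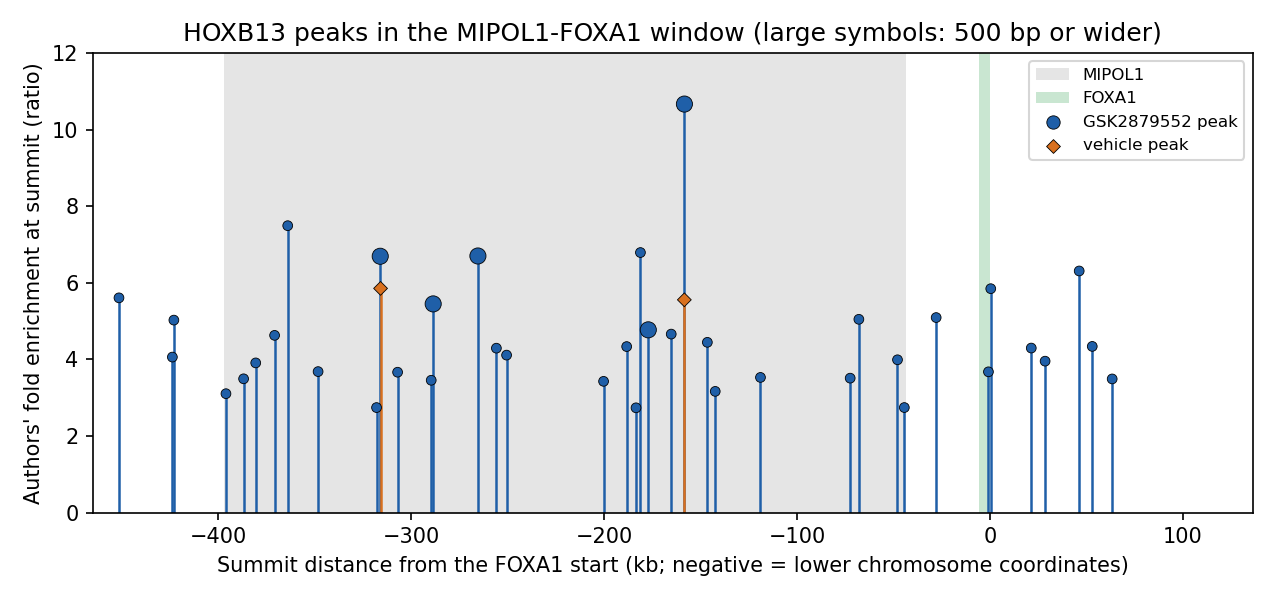
The authors' fold enrichment at the summit (vertical axis, a ratio) of each HOXB13 peak in the MIPOL1-FOXA1 window, by distance from the FOXA1 start in kb, with the spans of MIPOL1 and FOXA1 shaded and peaks of at least 500 bp drawn larger. The GSK2879552 peaks, shown as circles, crowd into MIPOL1, and both vehicle peaks, shown as diamonds, stand under wide circles at 6.69 and 10.7.

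The fold enrichment of a peak is the authors' ratio of the pileup of tags at the summit to the local background, taken with 1 added to both. It is thus lower than the plain ratio of the tags to the background, above all where the background is small. In the chromosome 14 window it ran from 2.74 to 10.7 with a median of 4.29 in the GSK2879552 list, where the median of the whole list was 4.22. Of the 39 peaks, 12 reached a fold enrichment of 5 (30.8%, exact 95% binomial interval 17.0 to 47.6), against 26.6% of the whole list. The median fold enrichment was thus close to that of the list, while the number of peaks was high. The median pileup was 22 tags, against 18 in the whole list, over the higher local background given above. Wide peaks of at least 500 bp were 5 of 39 (12.8%, 4.30 to 27.4), against 2.51% in the whole list. All 5 lay within MIPOL1, and 2 of them overlapped a vehicle peak, as did 32.6% of the wide peaks of the whole list. These intervals cover counting error only, and neighbouring peaks are not independent.

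The strongest HOXB13 peak of the region lay in MIPOL1, 158 kb from the FOXA1 start. It ran from 37905433 to 37906131, 699 bp wide, with 10.7-fold enrichment in the GSK2879552 list and 101 tags at the summit over a local background of 8.56. By p-value it ranked 117 of 68049, and by fold enrichment 498. The vehicle list had a peak from 37905737 to 37906041 there, with 5.56-fold enrichment and 10 tags over 0.980, ranked 2204 of 3507 by p-value. Ranks from lists of such different length show no change between the libraries. The summits were 30 bp apart, equal to the median over all overlapping peaks.

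The other site in both lists lay 81.1 kb into MIPOL1 and held the widest peak of the set. This GSK2879552 peak, from 37747796 to 37748680, was 885 bp wide and showed 6.69-fold enrichment and 59 tags over a background of 7.96. The vehicle peak, from 37748073 to 37748428, showed 5.85-fold enrichment and 11 tags over 1.05. Its summit lay 177 bp from the GSK2879552 summit, a distance reached by 4.91% of the 3199 vehicle peaks with a GSK2879552 partner.

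The other 3 of the 5 peaks of highest fold enrichment also lay in MIPOL1, with no vehicle peak. A peak from 37700111 to 37700371, 33.1 kb from the MIPOL1 start, was enriched 7.49-fold with 37 tags at its summit. Another from 37882903 to 37883309 was enriched 6.79-fold with 56 tags. The third, from 37798663 to 37799225, was enriched 6.70-fold with 45 tags. All of them and both shared sites were among the 3507 GSK2879552 peaks of lowest p-value, and no other peak of the window was. The vehicle list held no peak of a pileup under 5, and at the genome-wide background none below a fold enrichment of 4.16. A missing vehicle peak means only that none was called, and the part of depth or treatment in this was not tested.

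At the FOXA1 gene itself the GSK2879552 list had a peak on either side of the start, and the vehicle list had none. The nearer one ran from 38064591 to 38064792, with its summit 329 bp upstream of the start and its edges 266 and 467 bp from it, on the side of TTC6. It was enriched 5.85-fold with 38 tags at the summit, over a local background 2.03 times that of the genome. It ranked 9156 of 68049 by fold enrichment. The peak within FOXA1, from 38063383 to 38063521, had its summit 869 bp downstream of the start, with 3.68-fold enrichment and 25 tags. At 139 bp it had the smallest width in the list.

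The sequence from the end of MIPOL1 to the end of FOXA1, 38.3 kb long, held a single GSK2879552 peak, from 38036201 to 38036456, with 5.09-fold enrichment and 22 tags. Beyond the FOXA1 start, the other 5 peaks reached out to 63.3 kb with fold enrichments from 3.49 to 6.31. The highest of these lay 46.2 kb from the start, from 38110383 to 38110630. At the start of MIPOL1 the nearest summit was 1102 bp into the gene, in a peak from 37668086 to 37668224 with 3.10-fold enrichment, which ranked 65640 in the list. The remaining 22 peaks within MIPOL1 were enriched 2.74-fold to 5.45-fold, and none had a vehicle peak. The 3 peaks before MIPOL1 had fold enrichments of 5.61, 4.06 and 5.03.

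HOXB13 peaks at ETV1 lay mostly within the gene and included a site of 10.5-fold enrichment. The 12 GSK2879552 peaks of the window came to 40.0 per Mb, against 26.6 on the rest of chromosome 7. Of 9100 bins of this length, 16.7% held at least 12, so the number is common in this list. For strong peaks, 17.1% of bins held 4 or more of at least 5-fold enrichment and 28.2% held 1 or more of the 3507 peaks of lowest p-value. The single vehicle peak was matched in 26.6% of bins. Within ETV1 there were 7 GSK2879552 peaks, or 69.9 per Mb over 100.2 kb, with 2 beyond its end and 3 beyond its start. The difference in density from the chromosome 14 window or from MIPOL1 was not tested. Fold enrichments ran from 2.71 to 10.5 with a median of 4.13, and 4 of 12 reached 5 (33.3%, 9.92 to 65.1). The local background had a median of 1.30 times that of the genome, and 30.6% of bins with 5 or more peaks had at least this. It is close to the median of 1.25 on the rest of chromosome 7 and below the 1.74 of the chromosome 14 window.

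**Figure D3:**
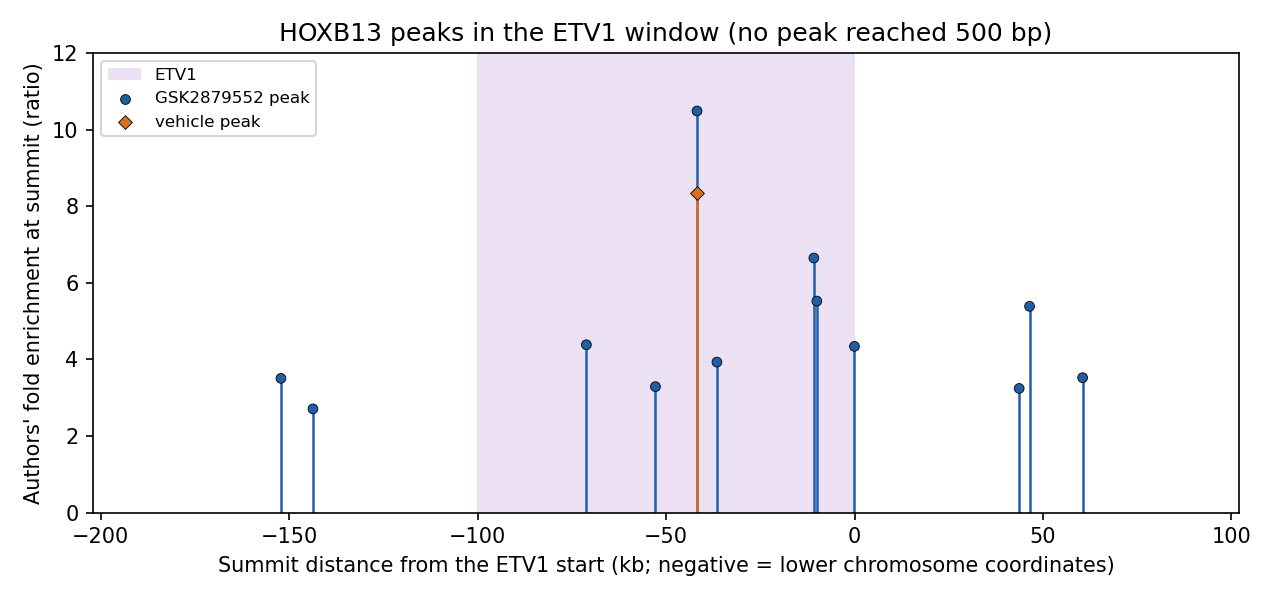
The authors' fold enrichment at the summit (a ratio) of each HOXB13 peak in the ETV1 window, by distance from the ETV1 start in kb, with the span of ETV1 shaded. The peak called in both lists, at 10.5 for GSK2879552 (circle) and 8.33 for vehicle (diamond), stands 41.8 kb inside the gene, and the lowest circle, at 2.71, lies beyond its end.

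The shared site of ETV1 lay 41.8 kb downstream of the start, within the gene. Its GSK2879552 peak, from 13989072 to 13989428, was enriched 10.5-fold with 57 tags over a local background of 4.53, and ranked 560 of 68049 by fold enrichment. The vehicle peak, from 13989157 to 13989343, was enriched 8.33-fold with 14 tags over 0.800, and ranked 348 of 3507. It was the strongest of the 3 vehicle peaks. The summits lay 6 bp apart.

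Near the ETV1 start, 2 peaks followed each other closely. One ran from 14020161 to 14020371, 10.8 kb into the gene, with 6.65-fold enrichment and 39 tags. The other, from 14020721 to 14021152, was the widest of the window with 432 bp and was enriched 5.52-fold with 34 tags. At the start itself a peak from 14030964 to 14031137 reached 87 bases before and 86 after it, with the summit 14 bp into the gene, 4.34-fold enrichment and 18 tags. These are the bases in capitals in the ETV1 promoter above, as far as it reaches. None of the 3 overlapped a vehicle peak. The remaining 3 peaks within the gene were enriched 3.29-fold to 4.38-fold. The peaks beyond the end of ETV1 had fold enrichments of 3.50 and 2.71, and those beyond its start 3.24, 5.39 and 3.52.

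All 3 vehicle peaks of the set overlapped a GSK2879552 peak, as did 91.2% of the whole vehicle list. In the other direction, 3 of 51 GSK2879552 peaks overlapped a vehicle peak (5.88%, exact 95% binomial interval 1.23 to 16.2), against 4.59% of the whole list. That share was near the background and is no result about these genes. With an overlap of at least 50% of both peaks it was 1 of 51, or 1.96%. By fold enrichment, no member under 6 had a vehicle peak (0 of 43, exact 95% interval up to 8.22%), 1 of 6 did at 6 to under 8 and 2 of 2 did at 8 or more. The whole list had 1.80% under 6, 14.3% at 6 to under 8 and 52.1% at 8 or more. Of its peaks enriched at least 10-fold, 76.3% overlapped a vehicle peak, as both such members did.

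At the 3 shared sites the fold enrichment was higher in the GSK2879552 list, but each fold is relative to its own local background. It also has 1 added to pileup and background, which lowers the ratio more where the background is small, as with vehicle. The folds of the 2 lists therefore do not compare their signal. Over the genome-wide background the order varied. The pileup at the wide site of MIPOL1 was 21.1 times that background with GSK2879552 (exact 95% Poisson interval 16.1 to 27.2) and 24.9 times with vehicle (12.4 to 44.5). For the strongest site of MIPOL1 the values were 36.2 (29.4 to 43.9) and 22.6 (10.8 to 41.6). For ETV1 they were 20.4 (15.5 to 26.4) and 31.6 (17.3 to 53.1). The intervals of the libraries overlapped at each site, and they cover counting error only. The GSK2879552 pileup was 10.1 times the vehicle pileup at the strongest site of MIPOL1, 5.36 times at its wide site and 4.07 times at ETV1. There were 1031 shared sites with at least 50 GSK2879552 tags and a local background under 5 times the genome's. Of these, 1.16%, 54.8% and 79.8% reached these ratios. The strongest site was picked for its high GSK2879552 value, and its ratio was not tested.

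**Figure D4:**
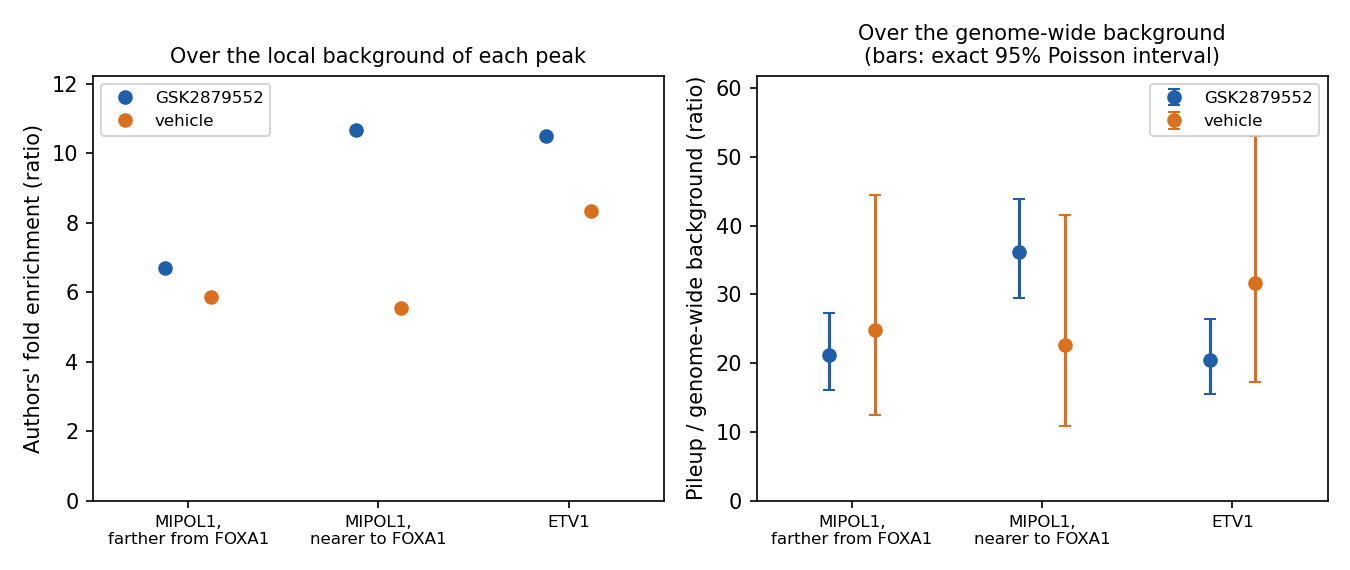
Left, the authors' fold enrichment of the GSK2879552 and vehicle peaks at the 3 shared sites, taken with 1 added to pileup and background. Right, the solved pileup over the genome-wide background of each library with exact 95% Poisson intervals. On the left each GSK2879552 point is the higher, and on the right only that of the MIPOL1 site nearer to FOXA1 is, at 36.2 against 22.6, with overlapping intervals.

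Seen over 1000 kb on either side, raised peak numbers lay on both sides of the FOXA1 start, but not evenly. MIPOL1 held 79.2 GSK2879552 peaks per Mb, the sequence between it and FOXA1 26.1, from 1 peak, and the window beyond the FOXA1 start 44.2. In bins of 100 kb counted from the FOXA1 start, the 4 bins towards MIPOL1 held 9, 6, 9 and 6 GSK2879552 peaks from the farthest to the nearest, and the first bin on the other side held 6. The nearest of the 4 takes in the end of MIPOL1, so these bins do not show the sparser sequence between the genes. The median of the 20 bins was 4 and the mean over the placed chromosomes 2.37. Farther off, a bin from 700 to 800 kb on the MIPOL1 side held 8. Around ETV1 the bin holding the gene had 7, the most of its 20 bins, and the median was 2. The nearest GSK2879552 peaks outside the windows were 13.7 and 22.3 kb from the edges on chromosome 14, with fold enrichments of 3.98 and 4.47. The first and last inside were 12.8 and 72.4 kb from the edges, with 5.61 and 3.49. On chromosome 7 those outside were 149 and 203 kb away, with 4.04 and 6.42, and those inside 48.0 and 39.5 kb, with 3.50 and 3.52.

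**Figure D5:**
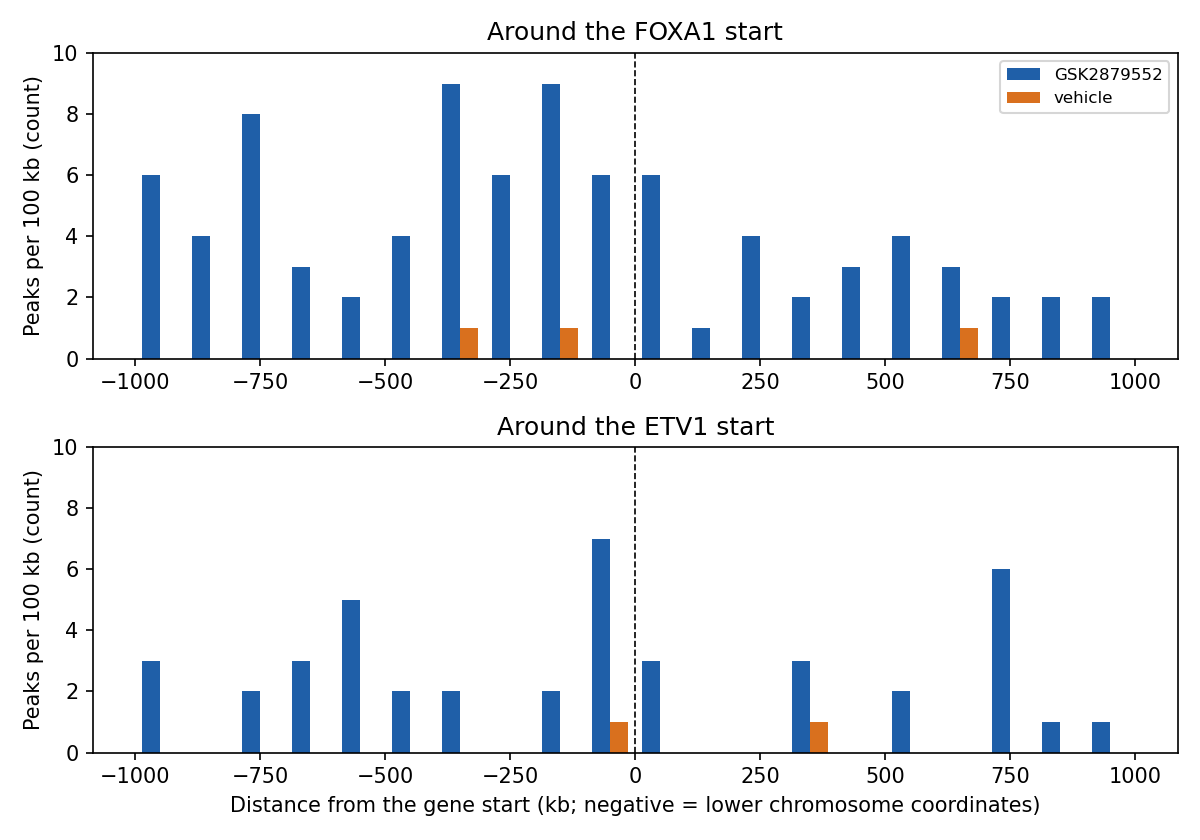
Number of HOXB13 peaks per 100 kb in both lists, by distance in kb from the start of FOXA1 (top) and of ETV1 (bottom), for 1000 kb on either side. The 4 bins to the left of the FOXA1 start hold 6 to 9 GSK2879552 peaks each, and the bin to the left of the ETV1 start holds 7.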

How the data were processed

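HOXB13 ChIP-seq peaks were taken from 2 deposited lists, 1 per treatment, each named for both lanes. Tools named in the submitters' processing notes are MACS2 2.1.2, BWA 0.7.2 and SAMtools 0.1.18, with hg19 and GRCh37 as builds. Whether an input control was used, and with which options peaks were called, is in both cases not given in the sources used here. The authors deposited per peak a fold enrichment (ratio), a −log10 p and −log10 q, a score (−log10 q times 10 without its decimals, in 100% of rows) and the summit offset. Coordinates are hg19, from 1. Left out were 676 and 215 peaks off chromosomes 1 to 22, X and Y.

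Pileup k and background λ followed from the deposited fold enrichment, taken as (k + 1)/(λ + 1), with the deposited −log10 p taken as Poisson. A whole k within 0.001 was found for 100% of peaks. The genome-wide background is the commonest λ. Background per 10 kb used the smallest peak widths, 139 and 100 bp, as tag lengths. Comparing tags this way assumes a background from the immunoprecipitated library itself. Overlap meant at least 1 bp. Densities and bins left out peak-free intervals of at least 2.5 Mb and bins without a GSK2879552 peak. The routines were tested on simulated data. The members, lists and gene intervals were chosen with earlier results of these data known.

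Peaks were named by a rule: vehicle peaks and their partners, the 5 and 3 highest fold enrichments of the windows, the peak nearest each gene start and the widest. The peaks within FOXA1, between the genes, beyond FOXA1 and at the edges of ETV1, and TTC6, were named after their values were seen. Python 3.11.15, pandas 2.3.3, NumPy 2.4.6, SciPy 1.17.1 and matplotlib 3.10.9 were used.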

Additional observations from a re-analysis of the deposited data

How the results depend on the processing

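With GSK2879552 peaks of a fold enrichment of at least 5 only, the MIPOL1-FOXA1 window held 12 peaks, the ETV1 window 4, and 18.8% of the members overlapped a vehicle peak. With the GSK2879552 list limited to the 3507 peaks of lowest p-value, the windows held 5 and 1, and 50% overlapped. Both alternatives keep fewer and stronger peaks by construction. A −log10 q of at least 3, assignment by any base and 50 kb of flank at ETV1 left the counts they were run on within 1.5 times. The number of members with a vehicle peak was 1 of 51 (1.96%) with an overlap of at least 50% of both peaks and 2 of 51 (3.92%) with summits within 100 bp, against 3 of 51. Both lie within the wide interval of that share. With a −log10 q of at least 3 it was 3 of 44. Chosen after seeing the data, bins with at least as many peaks as the MIPOL1-FOXA1 window were 0.675% for fold enrichments of at least 5, 0.907% for the limited list and 0.443% with bins shifted. No paired analysis was possible because each treatment had 1 list for both lanes. The vehicle peaks here rest on 10 to 14 tags, which limits the precision of their values.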
